A study of Arabidopsis thaliana with 24 samples.

Results

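The mitochondrion-encoded genes of Arabidopsis thaliana were taken as the rows of the deposited gene table whose identifier starts with ATMG, with at least 10 counts in 3 or more of the 24 libraries. This held for 32 of 152 such rows, out of 32833 genes in the table and 21982 that passed the same count rule. The measurements were RNA levels in strand-specific, mRNA-selected sequencing libraries from whole seedlings, 9 days old, grown on Murashige and Skoog medium (1/2 MS) with sucrose. The exa1-1 line, a mutant of the GYF-domain protein EXA1, was set beside wild type Col-0, and every exposure lasted 60 min. The 8 groups of 3 libraries were exa1-1 at 39 °C, wild type at 39 °C, exa1-1 at 23 °C, wild type at 23 °C, exa1-1 on 200 mM NaCl, wild type on 200 mM NaCl, exa1-1 on 1/2 MS and wild type on 1/2 MS. The 23 °C groups were the controls of the heat series, and the 1/2 MS groups those of the salt series. The replicates were independent biological ones per the series description, and exa1-1 is a single mutant line in these data.

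The plant mitochondrial genome encodes a small part of the respiratory chain (the nad genes for complex I, cox genes for cytochrome c oxidase, atp genes for ATP synthase), some ribosomal proteins, ribosomal and transfer RNAs and a splicing maturase, while most mitochondrial proteins come from nuclear genes. Its transcripts are edited at many cytidines, several contain introns, and the nad5 messenger is joined from separately transcribed pieces by trans-splicing. In plant mitochondria a poly(A) tail is a short-lived mark that leads an RNA towards decay, unlike the stable tails of nuclear messengers, so libraries that select polyadenylated RNA do not sample mitochondrial transcripts evenly. The labels do not say by which method mRNA was selected here.

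EXA1 itself (AT5G42950) was lower in each exa1-1 group, with mean counts of 282 in exa1-1 against 2426 in wild type at 39 °C and 1078 in exa1-1 against 4294 in wild type at 23 °C. It was at 916 in exa1-1 against 3215 in wild type on NaCl, and at 732 in exa1-1 against 2589 in wild type on 1/2 MS. Library totals ran between 17658196 and 20992263 counts. Levels are given below in CPM, read counts divided by a library size that was scaled by the TMM method. The TMM factors were 0.578 to 0.633 in the 39 °C libraries and 1.1 to 1.27 in the others. Without them, the median log2 change of all genes under heat would shift by -0.88 in wild type and -0.99 in exa1-1, so heat changes are relative to this scale.

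Of the 152 mitochondrial rows, 64 had no count in any library and 56 had some counts but did not reach the rule. The rows nearest the threshold were atp1 just inside it, with 10 as the third highest count over the libraries, and the unnamed row ATMG01350 just outside it, with 9 as the third highest count. The 32 members were 28 protein-coding rows, 1 row typed as a nontranslating coding sequence, 2 ribosomal RNA rows and 1 transfer RNA row. The deposited table named 11 of them. The gene length implied by the deposited values was equal to a RefSeq length in 6 more, which gave atp4 (ATMG00640), nad9 (ATMG00070), the 18S ribosomal RNA rrn18 (ATMG01390) and the 3 pieces of nad5, namely exons 1 to 2 (ATMG00513), exon 3 (ATMG00665) and exons 4 to 5 (ATMG00060). The remaining ribosomal RNA row, ATMG00020, was taken as the 26S RNA rrn26 by elimination. The 13 other reading frames and the transfer RNA ATMG09730 have no gene name here and keep their identifiers.

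Among the named mitochondrial genes, low or absent counts mostly went with high identity to nuclear DNA. In the RefSeq TAIR10.1 assembly, 100-base windows of the named genes were searched in the nuclear chromosomes, and each identical window was found on chromosome 2, which is known to carry a large copy of the mitochondrial genome. Among 16 named genes or gene pieces that passed the count rule, the median share of identical windows was 5.9%, and 7 had none (rrn18, rrn26, cox1, nad4L, nad9, atp4 and exons 4 to 5 of nad5). Among 16 that did not pass, the median share was 100%, and 12 were identical along their whole length, among them cob (0 counts in the 24 libraries), nad3 (0), cox3 (2), atp9 (2), atp8 (2) and nad4 (14). The exceptions among those were ccb206 with 50 counts and the 5S ribosomal RNA rrn5 with 17 counts, which had no identical window. However, cob, nad3, cox3, atp8, rps4, rps12 and ccmFN2 were named only through a RefSeq note on a nuclear copy. For them a nuclear copy was a condition of being compared, and no passing row was named that way. Of non-passing rows named by the deposited table, ccmFC, rpl5, RPS7, atp9 and nad4 were wholly identical, and ccmFN1 was at 94.9%. Members with high identity had low totals: nad6 (100% identical) had 97 counts, atp1 (100%) had 68, nad7 (86.1%) had 106, matR (89.3%) had 68 and rpl2 (76.4%) had 56. For comparison, cox1 had 2050 counts and rps3, with 4.5% identity, had 1865. No source used here says how reads that match more than 1 place were counted, and the part of this in these totals was not tested. The members atp6-2 and exon 3 of nad5 were not searched. Whether the absence of cob or cox3 from the members reflects their RNA level cannot be told from these counts.

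**Figure D1:**
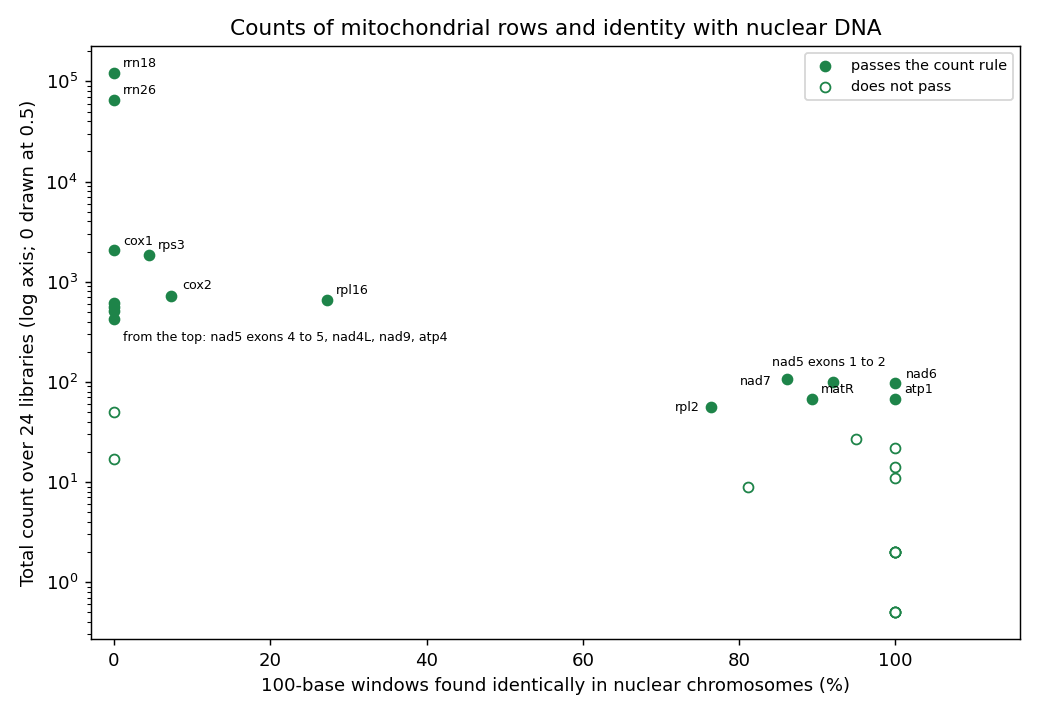
Total count over the 24 libraries (log axis) against the share of 100-base windows found identically in nuclear chromosomes (percent), for the named mitochondrial genes and gene pieces. Filled points passed the count rule and open points did not. Most open points sit at 100%, some of them named only through a RefSeq note on a nuclear copy. The 7 filled points at 0% include the highest totals.

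The 2 ribosomal RNA rows held most of the signal. The members together took 0.106 to 0.107% of all counts in exa1-1 at 39 °C, 0.0839 to 0.124% in wild type at 39 °C, 0.0329 to 0.0394% in exa1-1 at 23 °C and 0.0175 to 0.0231% in wild type at 23 °C. Ribosomal RNA made up 89.1 to 90.1% of the members' counts in the 39 °C libraries, and between 91.6 and 96.9% in the other libraries. Per length, in the deposited FPKM at 39 °C, rrn18 averaged 270 in exa1-1 and 256 in wild type, and rrn26 averaged 170 in exa1-1 and 147 in wild type. Among reading frames at 39 °C, ATMG00690 was at 23.5 FPKM in exa1-1 and 21.3 in wild type, cox1 at 11.7 in exa1-1 and 8.52 in wild type, and nad4L at 10.4 in exa1-1 and 13.1 in wild type. The genes with high nuclear identity lay far below, with atp1 at 0.328 FPKM in exa1-1 and 0.333 in wild type, and matR at 0.293 in exa1-1 and 0.18 in wild type.

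**Figure D2:**
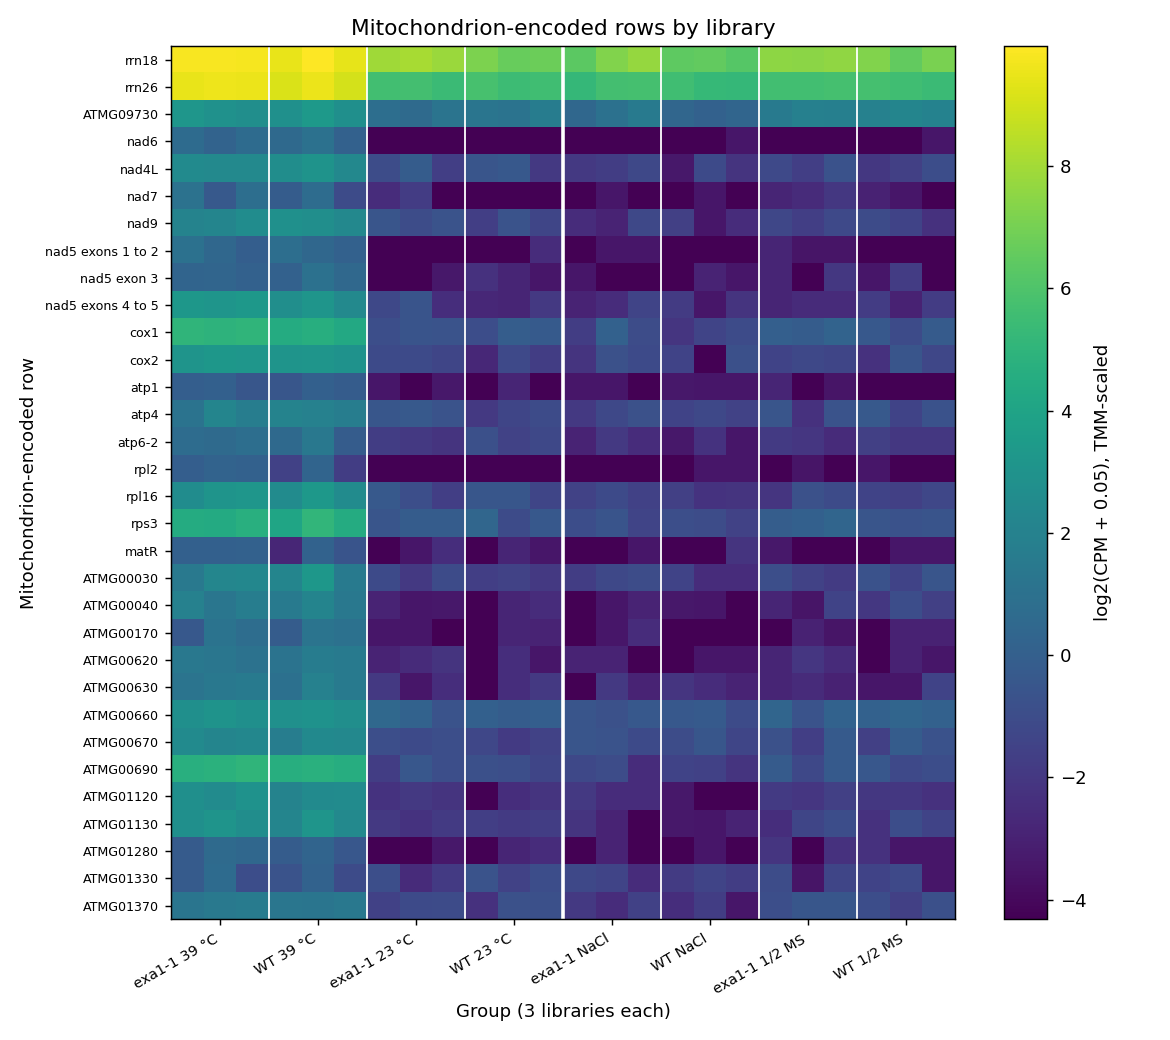
Level of the 32 members in each of the 24 libraries, as log2(CPM + 0.05) in colour, with members down the page and libraries, by group, across. The 6 libraries at 39 °C stand out in nearly all rows, and ATMG01330 is the row in which the 39 °C and 23 °C libraries overlap in both genotypes.

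Heat for 60 min went with higher levels of nearly all testable mitochondrial genes in these mRNA-selected libraries. Whether the amount of RNA rose, or the share of it that passed mRNA selection, was not tested. Of the 32 members, 16 pass the count rule without any 39 °C library, and among these 16 rose at 39 °C against 23 °C in exa1-1 (median log2 change 3.36) and 15 in wild type (median 3.68). Over all genes tested, 37.5% rose and 41.7% fell in exa1-1, and 37.7% rose and 41.4% fell in wild type, with median changes of -0.11 in exa1-1 and -0.09 in wild type (edgeR quasi-likelihood test, Benjamini-Hochberg adjusted p under 0.05). The other 16 passed the rule only through their 39 °C libraries, so their difference was a condition of being counted, and their values below are a description. These were nad6, nad7, the 3 pieces of nad5, atp1, atp6-2, rpl2, matR and 7 unnamed reading frames. With them included, 32 of 32 members were higher at 39 °C in exa1-1 (median 4.21) and 31 in wild type (median 4.46, or 4.17 with the members at 0 in the controls set to their lower bound). Of the 7 members with no identical nuclear window, 6 pass without 39 °C libraries, and all 6 rose in each genotype, with medians of 3.24 in exa1-1 and 3.66 in wild type. Seedlings were harvested whole, so a change in cell number and a change in RNA per cell cannot be told apart here or in any other comparison.

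The counted subunits of cytochrome c oxidase, the terminal enzyme of the chain, rose by 4.47 to 5.8 on the log2 scale. The cox1 messenger, for the catalytic subunit, was at 32, 29.9 and 32.7 CPM in exa1-1 at 39 °C, against 0.499, 0.612 and 0.569 CPM in exa1-1 at 23 °C. In wild type cox1 was at 21.9, 25 and 19.5 CPM at 39 °C, against 0.465, 0.876 and 0.768 CPM at 23 °C. The 39 °C libraries were all far above the 23 °C libraries, and the 3 exa1-1 libraries at 39 °C were all above the 3 wild-type ones. The log2 change was 5.8 ± 0.08 (SE, n = 3 against 3) in exa1-1 with an adjusted p of 3.18e-20, and 4.94 ± 0.26 in wild type with 1.66e-18 (edgeR quasi-likelihood test, Benjamini-Hochberg). For cox2, which carries the copper centre that receives electrons from cytochrome c, levels were 8.25, 9.39 and 8.88 CPM in exa1-1 at 39 °C, against 0.416, 0.408 and 0.35 CPM at 23 °C. In wild type cox2 was at 8.35, 8.66 and 7.86 CPM at 39 °C, against 0.103, 0.394 and 0.256 CPM at 23 °C. Its change was 4.47 ± 0.08 in exa1-1 and 4.97 ± 0.38 in wild type.

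Complex I, the NADH dehydrogenase at the entry of the chain, has 7 rows among the members, of which nad4L and nad9 pass the count rule without 39 °C libraries, and both rose in each genotype. The membrane-arm subunit nad4L was at 5.18 to 5.56 CPM in exa1-1 at 39 °C against 0.262 to 0.856 at 23 °C, and at 4.96 to 8.13 CPM in wild type at 39 °C against 0.213 to 0.701 at 23 °C. That is a log2 change of 3.32 ± 0.41 in exa1-1 and 3.67 ± 0.48 in wild type. The peripheral-arm subunit nad9 was at 4.12 to 6.2 CPM in exa1-1 at 39 °C against 0.449 to 0.624 at 23 °C, and at 5.04 to 7.12 CPM in wild type at 39 °C against 0.258 to 0.569 at 23 °C. Its change was 3.16 ± 0.21 in exa1-1 and 3.96 ± 0.31 in wild type. Both genes have no identical nuclear window, and in both the heat libraries were clear of their controls.

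The 3 pieces of nad5, a proton-pumping membrane subunit of complex I whose messenger is assembled by trans-splicing, could be followed one by one. Exons 4 to 5 were at 9.33, 8.56 and 9.9 CPM in exa1-1 at 39 °C, against 0.375, 0.612 and 0.131 CPM at 23 °C. In wild type they were at 6.55, 8.66 and 5.3 CPM at 39 °C, against 0.103, 0.0876 and 0.213 CPM at 23 °C. This piece changed by 4.60 ± 0.48 in exa1-1 and 5.58 ± 0.31 in wild type. Exons 1 to 2, with 92.0% identity to nuclear DNA, gave 46 counts in exa1-1 at 39 °C against 0 at 23 °C, which is at least 33.4-fold higher (against a floor of 3 counts over the group). In wild type exons 1 to 2 gave 45 counts at 39 °C against 3 at 23 °C, a ratio of 29.3 (95% exact counting interval 9.42 to 148). The very short exon 3 gave 37 counts against 1 in exa1-1, a ratio of 80.5 (13.6 to 3260), and was higher by 3.90 ± 0.35 on the log2 scale in wild type. All 3 pieces passed the count rule only through their 39 °C libraries, so their heat difference was a condition of being counted and the values are a description. Intervals and floors cover counting error only, since the reads carry no molecular identifiers.

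For 2 more complex I genes the controls were nearly empty. The membrane subunit nad6 had 46 counts in exa1-1 at 39 °C against 0 at 23 °C (at least 33.4-fold higher), and 49 counts in wild type at 39 °C against 0 at 23 °C (at least 31.9-fold higher). The peripheral-arm subunit nad7 had 23, 8 and 19 counts in exa1-1 at 39 °C against 3, 6 and 0 at 23 °C, a log2 change of 3.53 ± 0.68. In wild type nad7 had 9, 18 and 5 counts at 39 °C against 0 in all 3 libraries at 23 °C, at least 20.9-fold higher. Both rows are largely identical to chromosome 2, and they entered the set only through their 39 °C counts.

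For ATP synthase, the log2 changes of atp4 and atp6-2 were smaller than those of the cox genes, a difference between genes that was not tested. The membrane-part subunit atp4 was at 2.15, 4.42 and 3.24 CPM in exa1-1 at 39 °C, against 0.666, 0.734 and 0.569 CPM at 23 °C. In wild type atp4 was at 4.08, 3.8 and 3.33 CPM at 39 °C, against 0.207, 0.35 and 0.427 CPM at 23 °C. The groups were clear of each other, with log2 changes of 2.30 ± 0.31 in exa1-1 (adjusted p = 4.37e-07, edgeR quasi-likelihood test, Benjamini-Hochberg) and 3.46 ± 0.25 in wild type (1.57e-09). The proton-channel subunit atp6-2 changed by 2.91 ± 0.12 in exa1-1 and 2.00 ± 0.46 in wild type. The catalytic-part subunit atp1, wholly identical to nuclear DNA, gave 28 counts in exa1-1 at 39 °C against 2 at 23 °C (ratio 30.5, interval 7.68 to 264), and 28 in wild type at 39 °C against 2 at 23 °C (ratio 27.4, interval 6.9 to 237). Both atp6-2 and atp1 passed the count rule only through their 39 °C libraries, so their heat values are a description. Per length, atp6-2 was at 0.686 FPKM in exa1-1 at 39 °C and 0.716 in wild type, beside 3.31 in exa1-1 and 3.93 in wild type for atp4.

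The ribosomal protein genes rps3 (small subunit) and rpl16 (large subunit) lie on the same transcript and share 134 exon bases, so their counts may not be independent. The level of rps3 was 22.1, 20.9 and 26.2 CPM in exa1-1 at 39 °C, against 0.624, 0.856 and 0.831 CPM at 23 °C. In wild type rps3 was at 16.7, 33.6 and 22.3 CPM at 39 °C, against 1.24, 0.438 and 0.725 CPM at 23 °C. Every heated library was above every control, the second wild-type heat library being the highest of the 6, and the log2 changes were 4.89 ± 0.16 in exa1-1 and 4.95 ± 0.48 in wild type. For rpl16 the changes were 3.93 ± 0.40 in exa1-1 and 3.68 ± 0.35 in wild type. The large-subunit gene rpl2 gave 33 counts in exa1-1 at 39 °C against 0 at 23 °C (at least 23.9-fold higher), and 19 in wild type at 39 °C against 0 at 23 °C (at least 12.4-fold). The maturase matR, encoded within an intron of nad1 and needed for intron splicing, gave 33 counts in exa1-1 at 39 °C against 4 at 23 °C (log2 change 4.02 ± 0.36). In wild type it gave 20 counts at 39 °C against 3 at 23 °C, a ratio of 13 (3.87 to 68.5). Both rpl2 and matR passed the count rule only through their 39 °C libraries, so their heat values are a description.

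The ribosomal RNAs rose too, and unequally. The 26S RNA rrn26 was at 714, 774 and 738 CPM in exa1-1 at 39 °C, against 49, 51.4 and 43 CPM at 23 °C. In wild type rrn26 was at 566, 756 and 533 CPM at 39 °C, against 56.8, 43.9 and 48.5 CPM at 23 °C. The control levels of rrn26 overlapped between genotypes, and its log2 change was 3.96 ± 0.08 in exa1-1 (adjusted p = 5.24e-21, edgeR quasi-likelihood test, Benjamini-Hochberg) and 3.64 ± 0.19 in wild type (3.28e-20). The 18S RNA rrn18 was at 891, 896 and 879 CPM in exa1-1 at 39 °C, against 246, 275 and 229 CPM at 23 °C. In wild type rrn18 was at 730, 999 and 705 CPM at 39 °C, against 144, 99.4 and 106 CPM at 23 °C. Heat levels of rrn18 overlapped between the genotypes while the 23 °C levels did not, and the log2 change was 1.83 ± 0.08 in exa1-1 and 2.80 ± 0.23 in wild type. Reading frames rose more than ribosomal RNA: they summed to 11 to 12.2 per 100 ribosomal RNA counts in exa1-1 at 39 °C and 11.5 to 12 in wild type at 39 °C, against 2.91 to 3.19 in exa1-1 at 23 °C and 3.93 to 6.08 in wild type at 23 °C. The transfer RNA ATMG09730 was at 8.88, 7.37 and 6.66 CPM in exa1-1 at 39 °C against 1.75, 1.51 and 2.19 CPM at 23 °C, a change of 2.07 ± 0.19. In wild type it was at 7.21, 10.7 and 6.92 CPM at 39 °C against 2.32, 2.15 and 3.16 CPM at 23 °C, a change of 1.70 ± 0.26.

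Of the 13 unnamed reading frames, 6 pass the count rule without 39 °C libraries, and of these 6 rose in exa1-1 (median 3.13) and 5 in wild type (median 3.48). ATMG00690 was the most abundant by counts, at 25.7, 28.2 and 32.8 CPM in exa1-1 at 39 °C against 0.25, 0.693 and 0.481 CPM at 23 °C. In wild type ATMG00690 was at 25, 27 and 23.8 CPM at 39 °C against 0.516, 0.482 and 0.341 CPM at 23 °C. Its log2 change was 5.91 ± 0.36 in exa1-1 and 5.82 ± 0.16 in wild type, above that of any named gene among the 16 that pass without heat. The member that behaved unlike the rest was ATMG01330, with 9, 17 and 5 counts in exa1-1 at 39 °C against 12, 3 and 5 at 23 °C. In wild type ATMG01330 had 6, 12 and 5 counts at 39 °C against 11, 7 and 11 at 23 °C. The groups overlapped in both genotypes. Its change was 1.73 ± 0.62 in exa1-1 (adjusted p = 0.0105, edgeR quasi-likelihood test, Benjamini-Hochberg) and 0.62 ± 0.40 in wild type (adjusted p = 0.345), and the exa1-1 call was lost without the second 39 °C library (adjusted p = 0.144) and with library totals in place of TMM (0.241).

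**Figure D3:**
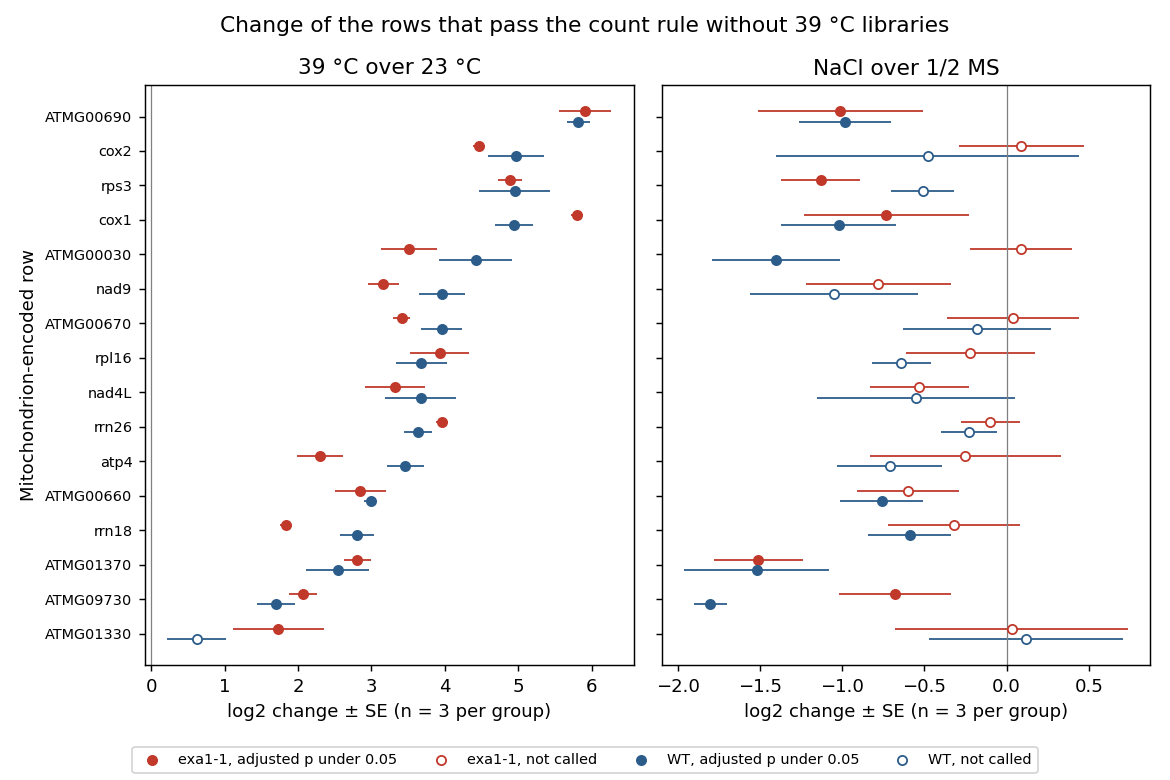
Log2 change ± SE of the 16 members that pass the count rule without any 39 °C library, under heat (39 °C against 23 °C) and salt (NaCl against 1/2 MS), for exa1-1 and wild type. The SE can be too small for rows with low counts in a group. Filled points passed an adjusted p of 0.05; heat changes run up to 5.91, and ATMG01330 in wild type is the single open point under heat.

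Other RNA classes were set beside the members in the same libraries. The reading frames summed to 176, 183 and 197 CPM in exa1-1 at 39 °C and 150, 208 and 149 CPM in wild type at 39 °C, against 9.41, 9.71 and 7.92 CPM in exa1-1 at 23 °C and 7.9, 8.72 and 8.53 CPM in wild type at 23 °C. Chloroplast protein-coding rows, from the other organelle genome, summed to 113 to 139 CPM in exa1-1 at 39 °C and 107 to 134 in wild type at 39 °C, against 93.9 to 119 in exa1-1 at 23 °C and 99.2 to 107 in wild type at 23 °C. These values depended on scaling. As a share of library totals they were 0.00655 to 0.00829% in exa1-1 at 39 °C against 0.0109 to 0.0139% at 23 °C. In wild type the share was 0.0063 to 0.00851% at 39 °C against 0.0111 to 0.0117% at 23 °C. Of 45 chloroplast-encoded rows that passed the count rule, 14 rose and 12 fell in exa1-1 (median -0.23), and 13 rose and 12 fell in wild type (median -0.13). The ratio of mitochondrial reading frames to chloroplast protein-coding rows, which does not depend on library scaling, was 1.27 to 1.61 in exa1-1 at 39 °C and 1.37 to 1.55 in wild type at 39 °C, against 0.0818 to 0.0959 in exa1-1 at 23 °C and 0.074 to 0.0861 in wild type at 23 °C. Mitochondrial over nuclear ribosomal RNA was 20.2 to 28.3 in exa1-1 at 39 °C and 19.3 to 24.6 in wild type at 39 °C, against 2.85 to 3.22 in exa1-1 at 23 °C and 2.13 to 2.26 in wild type at 23 °C. On both scale-free measures the heated libraries were clear of the controls.

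**Figure D4:**
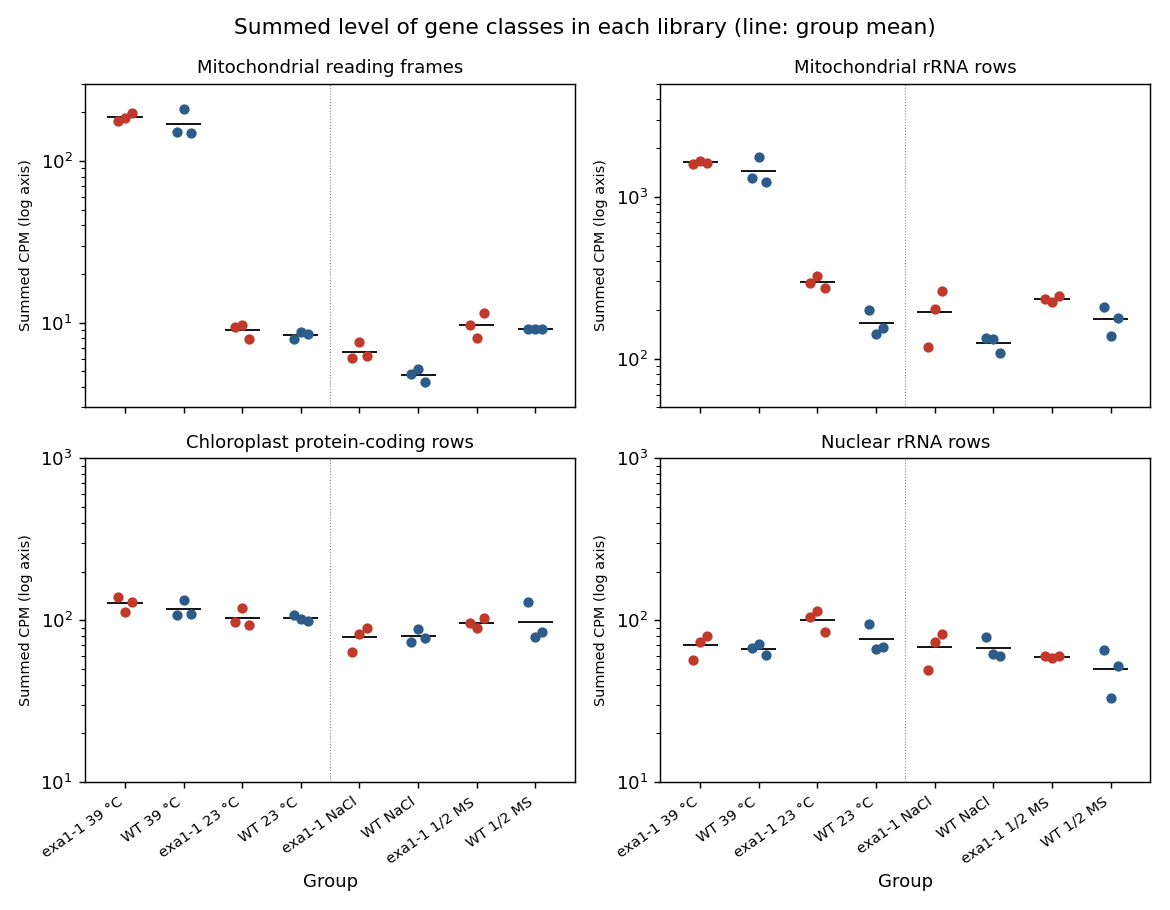
Summed CPM (log axes) of mitochondrial reading frames, mitochondrial ribosomal RNA rows, chloroplast protein-coding rows and nuclear ribosomal RNA rows in each library, with points for libraries and lines for group means. The 39 °C libraries are above all others in both mitochondrial panels, while in the heat series the chloroplast rows stay between 93.9 and 139 CPM and the nuclear ribosomal RNA rows between 56.7 and 114 CPM.

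Some nuclear rows moved with the members. RefSeq notes pair 46 nuclear rows with a mitochondrial gene by sequence, and 9 of them passed the count rule. Of these, 5 passed only through their 39 °C libraries; the other 4 rose under heat in each genotype, with a median log2 change of 3.23 in exa1-1 and 2.96 in wild type. All 46 rows together summed to 21.3 to 22.8 CPM in exa1-1 at 39 °C and 20.1 to 27.7 in wild type at 39 °C, against 1.29 to 1.92 in exa1-1 at 23 °C and 1.58 to 2.22 in wild type at 23 °C. Nuclear transfer RNA rows, whose products are likewise not stably polyadenylated, summed to 152 counts in exa1-1 at 39 °C against 44 at 23 °C, and to 230 counts in wild type at 39 °C against 41 at 23 °C. Nuclear ribosomal RNA rows were at 56.7 to 80.2 CPM in exa1-1 at 39 °C against 84.7 to 114 at 23 °C, and at 60.9 to 71.2 CPM in wild type at 39 °C against 66.7 to 94.5 at 23 °C. As a share of library totals they were 0.00337 to 0.00473% in exa1-1 at 39 °C against 0.00988 to 0.0133% at 23 °C. In wild type that share was 0.00368 to 0.00451% at 39 °C against 0.00761 to 0.0103% at 23 °C. The part of library preparation, of polyadenylation and of read assignment in the heat values was not tested.

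The nuclear partners of the same complexes were followed from fixed lists. Of 32 nuclear genes for respiratory complexes, 31 rose and 1 fell in each genotype, with medians of 0.87 in exa1-1 and 0.84 in wild type. The named ones were QCR7-2 (AT5G25450, complex III), at 9.28 in exa1-1 and 8.40 in wild type, and CYTC-2 (AT4G10040, cytochrome c), at 4.24 in exa1-1 and 4.53 in wild type. The complex II iron-sulfur subunit SDH2-1 (AT3G27380) changed by 2.03 in exa1-1 and 2.13 in wild type, and COX5b-1 (AT3G15640), a nuclear subunit of cytochrome c oxidase named here after its values were seen, fell by 1.5 in exa1-1 and 1.48 in wild type. These counts depended on scaling: with library totals alone, 7 rose and 17 fell in exa1-1 (median -0.12), and 9 rose and 10 fell in wild type (median -0.04). For the 16 mitochondrial members that pass without 39 °C libraries, the same scaling gave 15 risen in each genotype, with medians of 2.38 in exa1-1 and 2.8 in wild type. Per 1000 counts of the nuclear respiratory genes, mitochondrial reading frames had 19.7 to 22.8 in exa1-1 at 39 °C and 18.1 to 27.2 in wild type at 39 °C, against 1.78 to 2.27 in exa1-1 at 23 °C and 1.93 to 2.19 in wild type at 23 °C.

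Of 16 nuclear genes for mitochondrial RNA synthesis and processing, 12 rose and 4 fell in exa1-1 (median 0.66), and 11 rose and 3 fell in wild type (median 0.74). RPOTmp, an RNA polymerase of both organelles, rose by 1.92 in exa1-1 and 2.45 in wild type. MORF1, an RNA editing factor, rose by 2.07 in exa1-1 and 2.21 in wild type, and mtPNPase, the exonuclease that degrades polyadenylated mitochondrial RNA, rose by 1.51 in exa1-1 and 1.74 in wild type. Of the genes that fell, named after their values were seen, the intron-splicing maturase nMAT1 fell by 2.05 in exa1-1 and 1.58 in wild type, nMAT3 fell by 1.03 in exa1-1 and 1.11 in wild type, SHOT1 fell by 0.87 in exa1-1 and 0.62 in wild type, and nMAT4 fell by 0.89 in exa1-1. With library totals alone, 3 rose and 11 fell in exa1-1 (median -0.34), and 3 rose and 7 fell in wild type (median -0.14).

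Marker genes of plant parts also moved with heat. Summed shoot markers (RBCS1A, LHCB1.1, LHCA1) were at 15100 to 15400 CPM in exa1-1 at 39 °C and 18100 to 20800 in wild type at 39 °C, against 6110 to 8110 in exa1-1 at 23 °C and 8210 to 8460 in wild type at 23 °C. These values depended on scaling. As a share of library totals the shoot sum was 0.885 to 0.916% in exa1-1 at 39 °C against 0.714 to 0.945% at 23 °C, which overlap. In wild type the share was 1.14 to 1.22% at 39 °C against 0.916 to 0.938% at 23 °C. Summed root markers (PYK10, TIP2;3, LRX1) were at 438 to 459 CPM in exa1-1 at 39 °C and 381 to 411 in wild type at 39 °C, against 1610 to 2270 in exa1-1 at 23 °C and 1420 to 1440 in wild type at 23 °C. No shoot or root marker was at 0 in any library. RBCS1A weighed most in the shoot sum, with 73269 to 170130 counts per library, beside 6499 to 48672 for LHCA1 and 72 to 24412 for LHCB1.1. PYK10 made up nearly all of the root sum, with 3690 to 53586 counts per library. TIP2;3 had 48 to 881 counts and LRX1 had 19 to 653. The sums do not show the direction of each marker. Seed storage genes (CRA1, SESA1, SESA4) were at or below 9.78 CPM in all groups other than exa1-1 at 39 °C, which ran between 0.269 and 49.2, and SESA4 was at 0 in 18 libraries. The part of these markers in the mitochondrial values was not tested.

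Salt went the other way and by far less. Summed reading frames were at 6.08, 7.57 and 6.19 CPM in exa1-1 on NaCl against 9.74, 8.02 and 11.5 CPM on 1/2 MS, and at 4.81, 5.17 and 4.32 CPM in wild type on NaCl against 9.1, 9.2 and 9.2 CPM on 1/2 MS. The NaCl libraries were below their controls without overlap in both genotypes. In exa1-1 0 members rose and 6 fell (median -0.55), where 34.2% of all genes rose and 34.7% fell; in wild type 0 rose and 10 fell (median -0.67), where 34.6% of all genes rose and 33.5% fell. The members' shares, 6 of 32 in exa1-1 and 10 of 32 in wild type, are not above those of all genes. However, 16 of the 32 passed the count rule only through 39 °C libraries, and low counts limit their calls here. Of the 16 members that pass without 39 °C libraries, 5 fell in exa1-1, where 34.7% of all genes fell. In wild type 7 of these 16 fell, where 33.5% of all genes fell. Whether these shares differ from those of all genes was not tested. The 5 members that fell in both genotypes were cox1, the transfer RNA ATMG09730 and the reading frames ATMG00690, ATMG01130 and ATMG01370. For ATMG00690 the exa1-1 call was lost without any of 3 libraries (adjusted p 0.0923 to 0.165, edgeR) and the wild-type call without any of 14 (0.0503 to 0.195). For ATMG01130 the exa1-1 call was lost without either the third 1/2 MS or the third NaCl library (0.0761 to 0.0841). With library totals in place of TMM, 9 members fell in exa1-1 and 12 in wild type.

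ATMG09730 gave the smallest adjusted p under salt in wild type. It was at 1.32, 1.97 and 2.95 CPM in exa1-1 on NaCl against 2.8, 3.63 and 3.55 CPM on 1/2 MS, and at 1.27, 1.04 and 1.19 CPM in wild type on NaCl against 3.77, 4.42 and 3.98 CPM on 1/2 MS. In exa1-1 the third NaCl library overlapped the controls, and in wild type all NaCl libraries were below them. The log2 change was -0.68 ± 0.34 in exa1-1 (adjusted p = 0.00825) and -1.80 ± 0.10 in wild type (1.48e-07, edgeR quasi-likelihood test, Benjamini-Hochberg). The exa1-1 call was lost without its first NaCl library (adjusted p = 0.0853).

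ATMG01370 was at 0.213, 0.123 and 0.291 CPM in exa1-1 on NaCl against 0.489, 0.656 and 0.663 CPM on 1/2 MS, a change of -1.51 ± 0.27 (adjusted p = 0.0029, edgeR quasi-likelihood test, Benjamini-Hochberg). In wild type it was at 0.136, 0.25 and 0.0423 CPM on NaCl against 0.477, 0.276 and 0.518 CPM on 1/2 MS, a change of -1.52 ± 0.44 (0.00875), lost without the third NaCl library (0.0648). In neither genotype did the groups overlap. The messenger rps3 was at 0.468, 0.617 and 0.332 CPM in exa1-1 on NaCl against 0.89, 1 and 1.21 CPM on 1/2 MS, and fell by 1.13 ± 0.24 (adjusted p = 0.0117, edgeR; 0.0586 without the third NaCl library). In wild type rps3 was at 0.5, 0.458 and 0.296 CPM on NaCl against 0.636, 0.553 and 0.597 CPM on 1/2 MS, and its change of -0.51 ± 0.19 did not pass (adjusted p = 0.324, edgeR).

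The messenger cox1 was at 0.255, 1.03 and 0.457 CPM in exa1-1 on NaCl against 0.934, 0.848 and 1.13 CPM on 1/2 MS, and at 0.182, 0.333 and 0.423 CPM in wild type on NaCl against 0.715, 0.434 and 0.796 CPM on 1/2 MS. Its second exa1-1 NaCl library lay within the control range. The change was -0.73 ± 0.50 in exa1-1 (adjusted p = 0.0482, edgeR) and -1.02 ± 0.35 in wild type (0.0284), and single libraries decided both calls: 14 of the 24 ended the exa1-1 call when left out (adjusted p 0.0507 to 0.294) and 4 the wild-type call (0.0521 to 0.126). No other row of a respiratory complex passed the test under salt in either genotype, and cox2 changed by 0.09 ± 0.38 in exa1-1 and -0.48 ± 0.92 in wild type. Among low-count frames in wild type, ATMG01120 gave 1 count on NaCl against 14 on 1/2 MS (ratio 0.0776, interval 0.00183 to 0.51), and ATMG00040 gave 2 counts on NaCl against 24 on 1/2 MS (ratio 0.0905, interval 0.0104 to 0.365).

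For ribosomal RNA under salt, the change of rrn18 was -0.32 ± 0.40 in exa1-1 (adjusted p = 0.148, edgeR) and -0.59 ± 0.25 in wild type (0.0121, lost without the first 1/2 MS or the third NaCl library at 0.0657 to 0.0915). For rrn26 it was -0.10 ± 0.18 in exa1-1 and -0.23 ± 0.17 in wild type, neither past the test. The ratio of mitochondrial to nuclear ribosomal RNA was 2.37 to 3.16 in exa1-1 on NaCl against 3.87 to 4.07 on 1/2 MS, and 1.71 to 2.12 in wild type on NaCl against 3.18 to 4.19 on 1/2 MS, without overlap in either genotype. Beside it, nuclear ribosomal RNA rows were at 49.5 to 82.6 CPM in exa1-1 on NaCl against 58.3 to 60.2 on 1/2 MS, and at 59.8 to 79.2 CPM in wild type on NaCl against 33.1 to 65.5 on 1/2 MS. Chloroplast-encoded rows had 0 rising and 5 falling of 45 in each genotype. Of the 32 nuclear respiratory genes, 11 rose and 8 fell in exa1-1 and 10 rose and 8 fell in wild type. The ratio of mitochondrial reading frames to chloroplast protein-coding rows was 0.069 to 0.0958 in exa1-1 on NaCl against 0.0893 to 0.111 on 1/2 MS, which overlap, and 0.0553 to 0.0652 in wild type on NaCl against 0.0702 to 0.117 on 1/2 MS, which do not. Root markers summed to 1070 to 1110 CPM in exa1-1 on NaCl against 1910 to 2100 on 1/2 MS, and to 867 to 896 CPM in wild type on NaCl against 1880 to 2140 on 1/2 MS. Shoot markers summed to 4030 to 4190 CPM in exa1-1 on NaCl against 3550 to 3740 on 1/2 MS, and to 6810 to 7740 CPM in wild type on NaCl against 3970 to 4600 on 1/2 MS, and on NaCl the exa1-1 and wild-type ranges do not overlap. The part of these markers in the salt and genotype values was not tested.

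Between genotypes, few members differed, and rrn18 at 23 °C had the smallest adjusted p. At 23 °C rrn18 was higher in exa1-1 (log2 difference 1.1 ± 0.18, 2.15-fold, adjusted p = 0.000173, edgeR quasi-likelihood test, Benjamini-Hochberg), with all exa1-1 libraries above all wild-type libraries at the values given above. It was the single member called of 32, where 11.0% of all genes were higher and 13.1% lower in exa1-1. The 26S RNA did not move with it, at a difference of -0.05 ± 0.13. The ratio of rrn18 to rrn26 counts, which is free of library scaling, was 5.02, 5.35 and 5.34 in exa1-1 at 23 °C against 2.54, 2.26 and 2.2 in wild type at 23 °C. It was 1.25, 1.16 and 1.19 in exa1-1 at 39 °C against 1.29, 1.32 and 1.32 in wild type at 39 °C. On NaCl the ratio was 2.23, 2.94 and 3.81 in exa1-1 against 1.78, 2.48 and 2 in wild type, and on 1/2 MS 3.63, 3.54 and 3.64 in exa1-1 against 2.83, 1.93 and 3.18 in wild type. The genotypes were thus clear of each other at 23 °C, at 39 °C (with the order turned) and on 1/2 MS, and overlapped on NaCl.

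**Figure D5:**
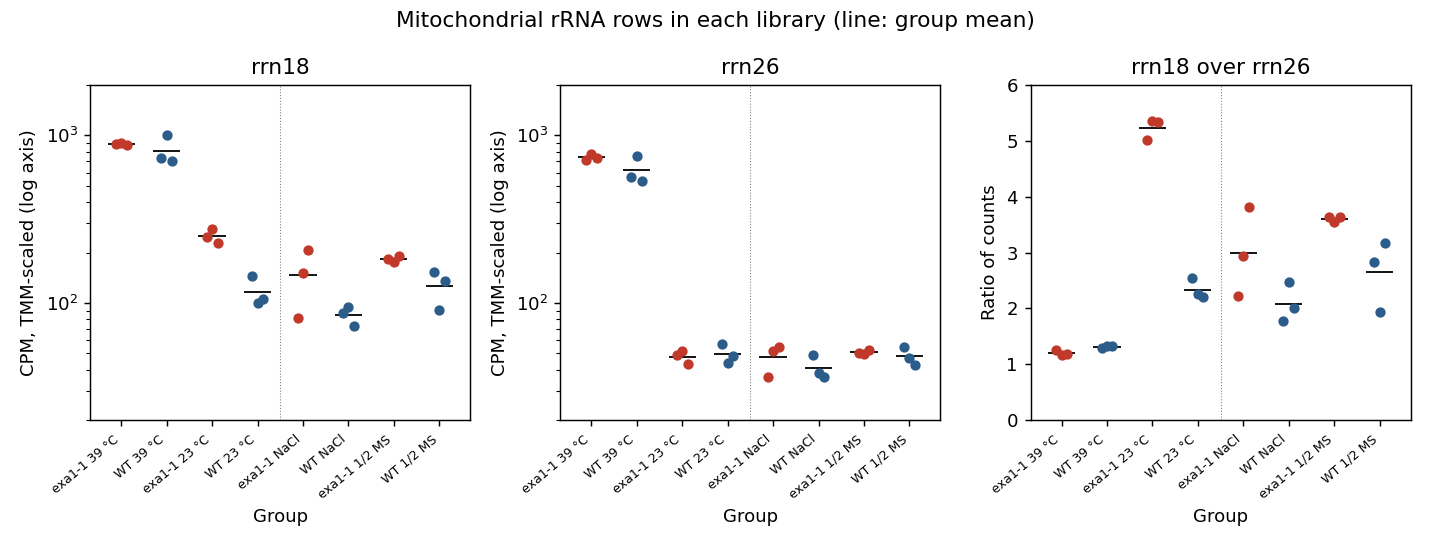
Level of rrn18 and rrn26 (CPM, log axes) and the ratio of their counts in each library, with points for libraries. At 23 °C the ratio is 5.02 to 5.35 in exa1-1 and 2.2 to 2.54 in wild type, while at 39 °C all 6 libraries lie between 1.16 and 1.32.

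Other ribosomal RNA classes at 23 °C were also somewhat higher in exa1-1: nuclear ribosomal RNA rows were at 84.7 to 114 CPM in exa1-1 against 66.7 to 94.5 in wild type, and chloroplast ones at 2.58 to 3.96 CPM in exa1-1 against 1.36 to 3.56 in wild type, both with overlap. Whether the amount of ribosomal RNA carried through mRNA selection has a part in the rrn18 difference was not tested. On 1/2 MS the rrn18 libraries did not overlap either, at 183, 176 and 192 CPM in exa1-1 against 154, 91.3 and 136 CPM in wild type, but the difference of 0.53 ± 0.23 did not pass (adjusted p = 0.0737, edgeR). There 0 members were called by edgeR, 3 had an unadjusted p under 0.05, and DESeq2 called 0, where edgeR called 6.14% of all genes higher and 8.26% lower.

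On NaCl 3 members were higher in exa1-1, where 11.4% of all genes were higher and 12.5% lower. These were rrn18, at 81.2, 152 and 207 CPM in exa1-1 against 86.8, 94.2 and 72.5 CPM in wild type (0.80 ± 0.41, adjusted p = 0.00443, edgeR), ATMG09730 (0.84 ± 0.33, 0.021) and ATMG01120, with 11 counts in exa1-1 against 1 in wild type (ratio 10.7, interval 1.55 to 458). The rrn18 groups overlapped, and its call was lost without the third exa1-1 NaCl library (adjusted p = 0.1). The call of ATMG09730 was lost without any of 3 NaCl libraries (0.0532 to 0.229), and that of ATMG01120 likewise (0.0712 to 0.0768).

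At 39 °C cox1 was the single member called, higher in exa1-1 by 0.51 ± 0.11 (1.43-fold, adjusted p = 0.00844, edgeR quasi-likelihood test, Benjamini-Hochberg), where 14.0% of all genes were higher and 13.0% lower. Its 3 exa1-1 libraries were all above the wild-type ones, at the values given above, and the call was lost without the third wild-type library (adjusted p = 0.061). The cox2 messenger of the same complex differed by 0.09 ± 0.07, rrn18 by 0.13 ± 0.16 and rrn26 by 0.26 ± 0.16, none past the test.

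The salt response itself differed between genotypes for 1 member, where the difference passed upward in 3.89% of all genes and downward in 4.04%. This was the transfer RNA ATMG09730, whose fall was smaller in exa1-1 by 1.12 ± 0.35 on the log2 scale (adjusted p = 0.0345, edgeR), and the call was lost without any of 7 libraries (0.0556 to 0.189). The heat response differed for 1 member, rrn18, whose rise was smaller in exa1-1 by a difference of -0.97 ± 0.24 (adjusted p = 0.0217, edgeR), where the difference passed upward in 6.30% of all genes and downward in 5.26%. That call was lost without the second or the third wild-type 23 °C library or the second wild-type 39 °C library (0.0587 to 0.0758). The same rrn18 libraries at 23 °C enter this difference and the genotype difference there.

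Between the unstressed groups of both series, 2 of 32 members were called, both lower at 23 °C. Of all genes, 37.3% were higher and 36.6% lower in the 23 °C controls than in the 1/2 MS controls over both genotypes. Since 16 of the 32 members passed the count rule only through 39 °C libraries, low counts in the controls limit which members could be called. ATMG09730 was lower at 23 °C, by -0.77 ± 0.13 (adjusted p = 5.87e-05, edgeR), with 1.51 to 2.19 CPM in exa1-1 at 23 °C and 2.15 to 3.16 in wild type at 23 °C against 2.8 to 3.63 in exa1-1 on 1/2 MS and 3.77 to 4.42 in wild type on 1/2 MS. ATMG00040 was lower by -1.65 ± 0.34 (0.0104), a call lost without the third exa1-1 library on 1/2 MS (0.171), which held 8 of that group's 11 counts. For cox1, cox2, rps3, rrn18 and rrn26 the differences were between -0.32 and 0.16, none past the test. Mitochondrial over nuclear ribosomal RNA was 2.85 to 3.22 in exa1-1 at 23 °C against 3.87 to 4.07 on 1/2 MS. In wild type this ratio was 2.13 to 2.26 at 23 °C against 3.18 to 4.19 on 1/2 MS, without overlap in either genotype. Nuclear ribosomal RNA itself was at 84.7 to 114 CPM in exa1-1 at 23 °C against 58.3 to 60.2 on 1/2 MS. In wild type it was at 66.7 to 94.5 CPM at 23 °C against 33.1 to 65.5 on 1/2 MS.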

How the data were processed

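The authors deposited raw counts as whole numbers. The aligner HISAT2 2.0.4, the counter HTSeq 0.6.1p1 and the build TAIR10 are named, per the submitters' processing notes; counting mode, strand setting, annotation release, filters and the tool for FPKM were not given in the sources used here. The deposited FPKM values equal the authors' count divided by gene length and library total, and were used for levels per length and in an alternative test.

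Every column had a sample (0 without one). Counts of all 24 libraries entered 1 edgeR 4.0.16 quasi-likelihood fit with 8 group means (R 4.3.3, limma 3.58.1), TMM scaling and the filter of at least 10 counts in 3 libraries; p-values were adjusted by Benjamini-Hochberg over 21982 genes and called under 0.05. SE come from the libraries' log2 CPM (prior count 2), while log2 changes come from the edgeR fit. The prior count shrinks low counts, so for low-count rows the SE can be smaller than the error of the printed change. Ratios with 1 to 3 counts in a group have 95% exact counting intervals, and a group at 0 was set to 3 counts. The fit was tested on simulated data. DESeq2 1.42.0 was an alternative; Python 3.11.15 read the reference. Lengths and windows used RefSeq TAIR10.1, so no coordinates are printed.

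Members and lists were chosen with earlier results of these data known. Values per library are given for up to 3 members with the smallest adjusted p per comparison and for the 5 most abundant, and respiratory members get ranges or counts. Up to 3 genes per comparison list are named by this rule, and further genes are marked as named after their values were seen. Replicate numbers did not pair libraries: deviations of same-numbered libraries correlated at -0.05 to 0.10 over 30 pairs. Replicates differed by more than sampling noise, with a chi-square per gene of 1.58 to 9.81.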

Additional observations from a re-analysis of the deposited data

Results flagged for a closer look

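The salt response of the mitochondrial transfer RNA ATMG09730 differed between exa1-1 and wild type by 1.12 on the log2 scale, in a test of the difference itself. The heat response of the 18S ribosomal RNA rrn18 (ATMG01390) differed between exa1-1 and wild type by -0.97 in the same kind of test. Each was the single member of 32 for which such a difference passed. Over all genes, the salt difference passed upward in 3.89% and downward in 4.04%. The heat difference passed upward in 6.30% and downward in 5.26% of all genes. The ATMG09730 call was lost when any 1 of 7 libraries was left out, and the rrn18 call when any 1 of 3 was left out.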

How the results depend on the processing

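None of the members' log2 changes past the threshold turned its direction under any alternative run. The number of members called under salt in exa1-1 was 6, and 10 with FPKM and limma at a pseudocount of 0.1. Between genotypes, the count on 1/2 MS was 0, and 1 with no filter. At 23 °C it was 1, and 2 with library totals only, with no filter and with DESeq2. At 39 °C it was 1, and 2 with no filter and 0 with FPKM and limma at a pseudocount of 0.1. Between the control sets it was 2, and 4 with FPKM and limma at a pseudocount of 1. Leaving out 1 library at a time gave 31 to 32 members under heat in exa1-1 and 31 to 31 in wild type, 3 to 10 under salt in exa1-1 and 5 to 10 in wild type. It gave 0 to 1 for the salt response difference and 0 to 1 for that of heat. Between genotypes it gave 0 to 1 on 1/2 MS, 1 to 4 on NaCl, 1 to 3 at 23 °C and 0 to 3 at 39 °C, and 1 to 3 between the control sets. With the replicate number as a block, 10 members were called under salt in wild type, 9 of them the same, and 5 in exa1-1; the other counts were as without the block. The cause of these shifts was not tested. The low counts of most reading frames outside 39 °C limit which salt and genotype differences could be detected.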
